A study of Mus musculus with 7 samples.

Results

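Voltage-gated sodium channel subunit genes were examined in RNA-seq libraries from neurons of the mouse medial prefrontal cortex (mPFC) with axons to the lateral habenula (LHB). The members are 7 genes taken by symbol from the 55367 genes of the count table: the alpha subunits Scn1a, Scn2a, Scn3a and Scn8a, and the beta subunits Scn2b, Scn3b and Scn4b. There were 3 libraries labelled noCRS and 4 labelled CRS, all from the brain of C57BL/6J mice labelled P90, with no agent, allele or transgene named in the labels. The labels do not spell out CRS, and the series title speaks of chronic stress and depression. The sources used here do not give how the neurons were marked and collected. Nor do the labels tie the libraries to different animals, and the p-values therefore reflect only library-to-library spread, which may be technical.

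Neurons fire action potentials through voltage-gated sodium channels, each built from 1 large pore-forming alpha subunit and smaller beta subunits that span the membrane once. The alpha subunit opens on depolarisation and inactivates within milliseconds. Beta subunits change the gating of the channel, its density at the cell surface and its contacts with adhesion proteins. In cortical pyramidal neurons the channels are densest at the axon initial segment, where spikes start.

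Library totals ran from 28677703 to 39965667 counts, with 16938 to 23399 genes detected. The fit across all genes had a biological coefficient of variation of 0.919. CRS replicate 2 stood apart on the first principal component (30.4% of the variance). Set against the label of projection neurons, the noCRS libraries held little of the 8 excitatory cortical neuron markers, which summed to 20.2 to 39.9 CPM (counts per 1e+06 counts, TMM-normalised) against 496 to 747 CPM in CRS. Oligodendrocyte markers summed to 32260 to 37380 CPM in noCRS and 26780 to 52510 CPM in CRS. In bulk samples, fewer cells of a type and less RNA per cell cannot be told apart.

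The 7 genes lie in a few places of the genome (GRCm38, coordinates of the deposited table). Scn3a (chromosome 2, 65457118 to 65567627, minus strand), Scn2a (chromosome 2, 65620771 to 65767447, plus strand) and Scn1a (chromosome 2, 66270778 to 66440840, minus strand) share a cluster, and Scn8a stands alone on chromosome 15 (100869858 to 101045938, plus strand). Scn2b (chromosome 9, 45117782 to 45130070, plus strand) and Scn4b (chromosome 9, 45138395 to 45154152, plus strand) are neighbours 8324 bases apart, with no other gene of the table starting between them. Scn3b (40269217 to 40291618, plus strand) lies elsewhere on chromosome 9. By GENCODE M21 the principal alpha transcripts have 26 or 27 exons and 5841 to 6018 coding bases, and those of the beta genes 4 to 7 exons and 645 to 684 coding bases. Coding sequence made up 11.8% to 13.85% of the exon length of the beta genes and 37.6% to 53.8% of that of the alpha genes.

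No member shared exon sequence with another gene of the table. Among 50-base stretches of the members' transcripts, 4.03% (Scn1a), 5.76% (Scn2a) and 6.49% (Scn3a) occurred exactly in a transcript of another gene, mostly in one another and in Scn9a. That share was 1.01% in Scn2b, 0.037% in Scn8a, and 0 in Scn3b and Scn4b. The sources used here do not say how reads with several alignments were counted.

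Upstream sequence is shown for the beta subunit with the largest difference, Scn2b, and for the alpha subunits with the largest fitted difference in each direction, Scn2a and Scn1a. The sequences are from RefSeq on GRCm38.p6, 5′ to 3′ on the gene's strand, cut to the bases ahead of both the RefSeq start and the gene's start in the table, with CpG dinucleotides in capitals.
Scn2b, chr9:45117626-45117781, plus strand: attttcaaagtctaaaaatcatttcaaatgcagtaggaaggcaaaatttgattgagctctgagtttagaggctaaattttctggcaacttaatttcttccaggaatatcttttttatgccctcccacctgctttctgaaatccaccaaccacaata
Scn2a, chr2:65620519-65620768, plus strand: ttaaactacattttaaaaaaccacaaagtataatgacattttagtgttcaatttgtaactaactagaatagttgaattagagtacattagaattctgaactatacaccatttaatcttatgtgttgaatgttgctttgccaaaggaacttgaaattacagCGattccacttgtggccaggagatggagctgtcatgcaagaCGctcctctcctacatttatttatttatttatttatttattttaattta
Scn1a, chr2:66440841-66441087, minus strand: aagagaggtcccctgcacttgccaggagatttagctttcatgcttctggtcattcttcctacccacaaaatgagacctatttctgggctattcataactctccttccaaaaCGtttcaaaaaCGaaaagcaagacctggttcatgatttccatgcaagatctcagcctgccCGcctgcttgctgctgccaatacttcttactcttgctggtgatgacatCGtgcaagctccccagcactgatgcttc

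RefSeq windows matched 5 of the 7 members, with a pair of starts each for Scn2a and Scn8a. In the 250 bases before the start, Scn2b held 1 CpG at 38.4% GC, the first Scn2a start 2 CpG at 29.6% GC and Scn1a 4 CpG at 46.8% GC. The second Scn2a start held 9 CpG at 53.2% GC, and the Scn8a starts held 30 CpG at 68.0% GC and 9 CpG at 53.2% GC. Over 32851 such windows the median was 6 CpG and 52.4% GC. Scn4b, next to Scn2b, had 23 CpG at 66.0% GC, a count that 88.02% of windows do not exceed, whereas 18.8% of windows had as few as Scn2b or fewer. The AP-1 motif TGANTCA, searched on both strands, was in 0 of the 7 member windows and in 6.75% of all windows. The CRE motif TGACGTCA, likewise on both strands, was in 0 member windows and in 1.55% of all windows.

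Among the beta subunits, Scn2b rose in CRS, Scn3b was higher in every CRS library without passing the threshold, and Scn4b was not detected. Scn2b encodes the subunit that is joined to the alpha subunit by a disulfide bond and carries an immunoglobulin-like domain outside the cell. Its counts were 974, 381 and 207 in noCRS replicates 1 to 3 and 3615, 4337, 2878 and 11464 in CRS replicates 1 to 4. As CPM these were 23.5, 12.2 and 6.38 in noCRS and 109, 135, 95.0 and 299 in CRS. The lowest CRS library stood above the highest noCRS library, and CRS replicate 4 was far above the other CRS libraries. The means were 14.0 ± 8.70 CPM (SD, n = 3) and 159.6 ± 94.3 CPM (SD, n = 4), an 11.37-fold difference. The fitted log2 fold change was 3.50 ± 0.59 (SE), and the edgeR quasi-likelihood p, adjusted by Benjamini-Hochberg over 17833 genes, was 0.0242. By that test Scn2b was the only one of the 7 members past the threshold of 0.05, and no member was called lower. Of all tested genes 2.3% were called in either direction, 2.07% as higher and 0.23% as lower. The call was lost without noCRS replicate 2 (edgeR adjusted p = 0.123) or noCRS replicate 3 (0.0733) and by limma-voom (0.0585), while DESeq2 gave 1.32e-08. With noCRS replicate 1 left out, the mean of that group fell to 9.31 CPM and the log2 fold change was 4.12.

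Scn3b encodes a beta subunit that binds the alpha subunit without a covalent bond. It measured 7.98, 7.87 and 7.27 CPM in noCRS and 69.9, 13.6, 27.2 and 38.1 CPM in CRS. The noCRS libraries were nearly alike, with a coefficient of variation of 4.96%, while the CRS libraries spread over a coefficient of variation of 64.5% and still all lay above them. The means were 7.71 ± 0.38 and 37.2 ± 24.0 CPM (SD, n = 3 and n = 4). The log2 fold change was 2.27 ± 0.56 (SE), and the edgeR adjusted p of 0.0893 missed the threshold. It was 0.0339 without CRS replicate 2, the CRS library with the lowest Scn3b, and 0.141 to 0.264 with any other library left out. DESeq2 gave 0.00109 and limma-voom 0.096.

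Scn4b encodes the other disulfide-linked beta subunit, whose intracellular tail is known for its part in resurgent sodium current. It had 0 counts in all 7 libraries and was not tested. A count of 0 allows up to 3 counts, or 0.0724 to 0.0990 CPM in a library and 0.0286 CPM over the noCRS group and 0.0224 CPM over the CRS group. Its neighbour Scn2b, on the same strand, had 207 counts or more in each of the same libraries.

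Among the alpha subunits, no member passed the threshold in either direction by edgeR, which called 2.3% of all tested genes. DESeq2 called 1 alpha subunit, where 9.14% of the 17849 genes with an adjusted p were called, and limma-voom 1, where 3.58% were. In both cases that was Scn2a. Scn2a encodes the alpha subunit typical of cortical excitatory neurons, found in the axon initial segment and unmyelinated axons. It measured 39.3, 23.7 and 13.6 CPM in noCRS and 69.7, 61.2, 77.3 and 88.6 CPM in CRS. The groups did not overlap, and the CRS libraries were the closer together. The means were 25.5 ± 12.9 and 74.2 ± 11.6 CPM (SD, n = 3 and n = 4). The log2 fold change was 1.54 ± 0.37 (SE), with an edgeR adjusted p of 0.0774. That p was 0.0493 without noCRS replicate 1, the library with the most Scn2a in its group, and 0.0934 to 0.248 with any other library left out. DESeq2 and limma-voom gave 0.00194 and 0.0220.

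Scn8a encodes the alpha subunit of mature initial segments and nodes of Ranvier. It measured 10.8, 27.7 and 32.9 CPM in noCRS and 33.8, 35.8, 37.6 and 43.6 CPM in CRS. The groups did not overlap, though the nearest libraries of the groups were less than 1 CPM apart, and noCRS replicate 1 was low. The log2 fold change was 0.66 ± 0.40 (SE), with an edgeR adjusted p of 0.579. Divided by length and scaled to each library's sum, without TMM factors, the Scn8a groups overlapped (1.77 to 5.67 in noCRS and 5.22 to 7.01 in CRS).

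Scn3a, an alpha subunit known for high expression in the embryonic and newborn rodent brain, measured 29.4, 27.4 and 23.4 CPM in noCRS and 52.2, 25.4, 19.0 and 20.3 CPM in CRS. CRS replicate 1 was above all noCRS libraries, while CRS replicates 3 and 4 were below all of them. The log2 fold change of Scn3a was 0.13 ± 0.42 (SE), with an edgeR adjusted p of 0.949. It was -0.31 without CRS replicate 1, -0.02 with libraries scaled by total counts alone and -0.14 by limma-voom.

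Scn1a encodes the alpha subunit prominent in fast-spiking interneurons. It was the one member with a fitted fold change below 0. It measured 39.8, 19.0 and 34.2 CPM in noCRS and 11.4, 12.6, 27.8 and 35.0 CPM in CRS. CRS replicates 1 and 2 were below every noCRS library, and CRS replicates 3 and 4 lay within the noCRS range. The log2 fold change was -0.51 ± 0.49 (SE), with an edgeR adjusted p of 0.797, and it stayed below 0 under each of 15 alternatives, from -0.89 to -0.14.

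**Figure D1:**
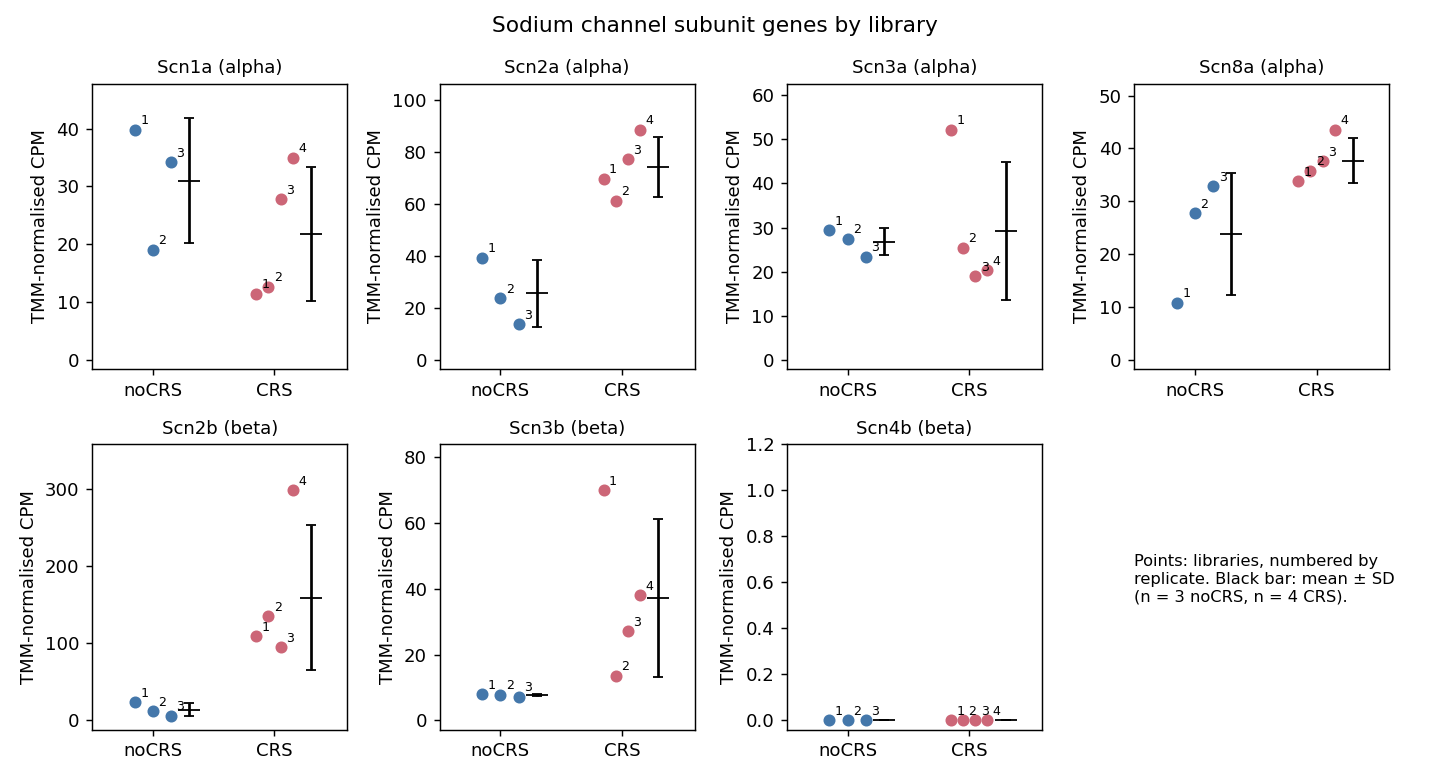
TMM-normalised CPM of the 7 subunit genes in each library (points, numbered by replicate; black bars show mean ± SD, n = 3 noCRS and n = 4 CRS), on a linear axis for each gene. Scn2b runs from 6.38 to 23.5 CPM in noCRS and from 95.0 to 299 CPM in CRS, whereas the groups overlap for Scn1a and Scn3a and Scn4b is at 0 throughout.

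The 6 tested members each had 207 counts or more in every library, so the filter on low counts did not select them through either group. All CRS libraries lay above all noCRS libraries for 4 of these 6 (Scn2a, Scn8a, Scn2b and Scn3b), as they did for 10.1% of all tested genes, and they lay below for 0 of 6 against 6.74%. Fitted fold changes were above 0 for 5 of the 6, as for 49.2% of all tested genes. The 4 alpha subunits had a median log2 fold change of 0.40, the 2 tested beta subunits 2.89 and all 17833 tested genes -0.02. Both beta values, 2.27 and 3.50, were above the highest alpha value of 1.54. Fold changes at least as high as that of Scn2b were found in 2.865% of tested genes, of Scn3b in 4.87% and of Scn2a in 8.35%. For Scn8a, Scn3a and Scn1a those shares were 20.9%, 42.75% and 72.9%. Across the 15 alternatives the alpha median ran from 0.205 to 0.507 and the beta median from 2.57 to 3.21.

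**Figure D2:**
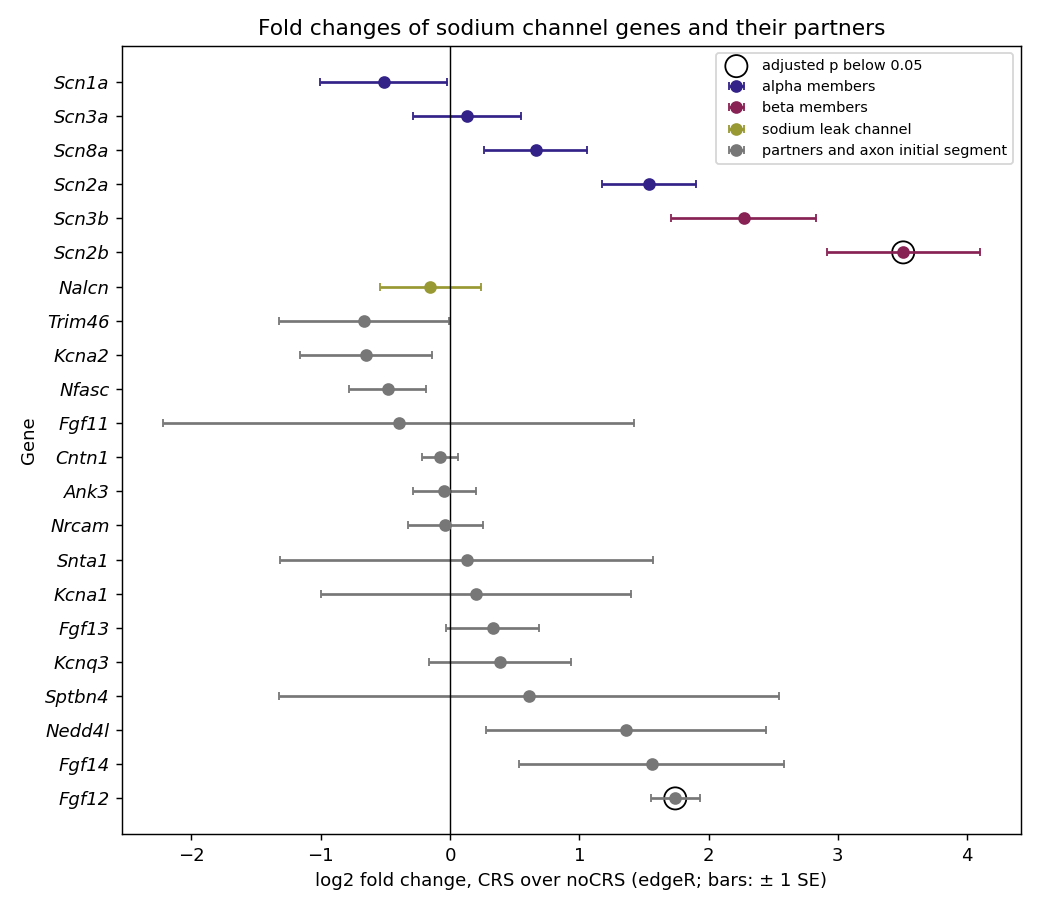
Fitted log2 fold changes, CRS over noCRS, with ± 1 SE for the tested members, the sodium leak channel gene Nalcn and genes for channel partners and axon initial segment proteins; open circles mark an adjusted p below 0.05. Scn2b (3.50) and Fgf12 (1.74) are circled, and the alpha subunits spread from -0.51 to 1.54.

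Levels of different genes were compared per length, as counts per kilobase of exon scaled to a sum of 1e+06 over all genes of a library. In noCRS the 6 detected members were close: Scn2b 8.02 ± 4.725, Scn1a 7.44 ± 2.40, Scn3a 5.65 ± 0.56, Scn2a 5.29 ± 2.53, Scn8a 4.10 ± 2.05 and Scn3b 3.80 ± 0.18 (SD, n = 3). Each neighbouring pair in that order overlapped between libraries. In CRS the order was Scn2b 85.3 ± 52.1, Scn3b 17.3 ± 11.8, Scn2a 14.3 ± 2.68, Scn8a 5.92 ± 0.77, Scn3a 5.76 ± 3.32 and Scn1a 4.85 ± 2.66 (SD, n = 4). Scn2b was above Scn3b in every CRS library, and Scn2a above Scn8a with no overlap of their ranges. Scn3b and Scn2a overlapped, as did Scn8a, Scn3a and Scn1a. By mean, Scn1a came first of the alpha subunits in noCRS and last in CRS, though in both groups it overlapped its neighbours.

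The share of the beta subunits in the summed level per length of all 7 members was 40.35%, 35.3% and 25.1% in noCRS and 74.1%, 75.65%, 67.2% and 83.2% in CRS. Beta transcripts were the minority in every noCRS library and the majority in every CRS library, with means of 33.6% ± 7.745 and 75.0% ± 6.55 (SD, n = 3 and n = 4). The summed alpha level was 22.5 ± 2.23 in noCRS and 30.9 ± 5.55 in CRS, with overlapping ranges (20.6 to 24.9 and 23.4 to 36.5). The summed beta level was 11.8 ± 4.79 and 102.5 ± 53.6, with ranges that did not overlap (7.34 to 16.9 and 62.6 to 180.4). The beta to alpha ratio was 0.52 ± 0.17 in noCRS and 3.24 ± 1.22 in CRS.

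Within the alpha subunits, Scn2a made up 31.7%, 24.65% and 13.1% of the summed alpha level in noCRS and 42.7%, 46.8%, 48.5% and 47.9% in CRS. Its share was higher in each CRS library than in any noCRS library. Scn1a made up 37.1%, 22.9% and 38.1% in noCRS and 8.07%, 11.2%, 20.2% and 21.8% in CRS, lower in each CRS library than in any noCRS library. The Scn8a share overlapped (7.11% to 25.9% and 16.9% to 22.3%), as did that of Scn3a (22.9% to 28.9% and 11.1% to 32.35%). These shares are descriptions and were not tested.

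**Figure D3:**
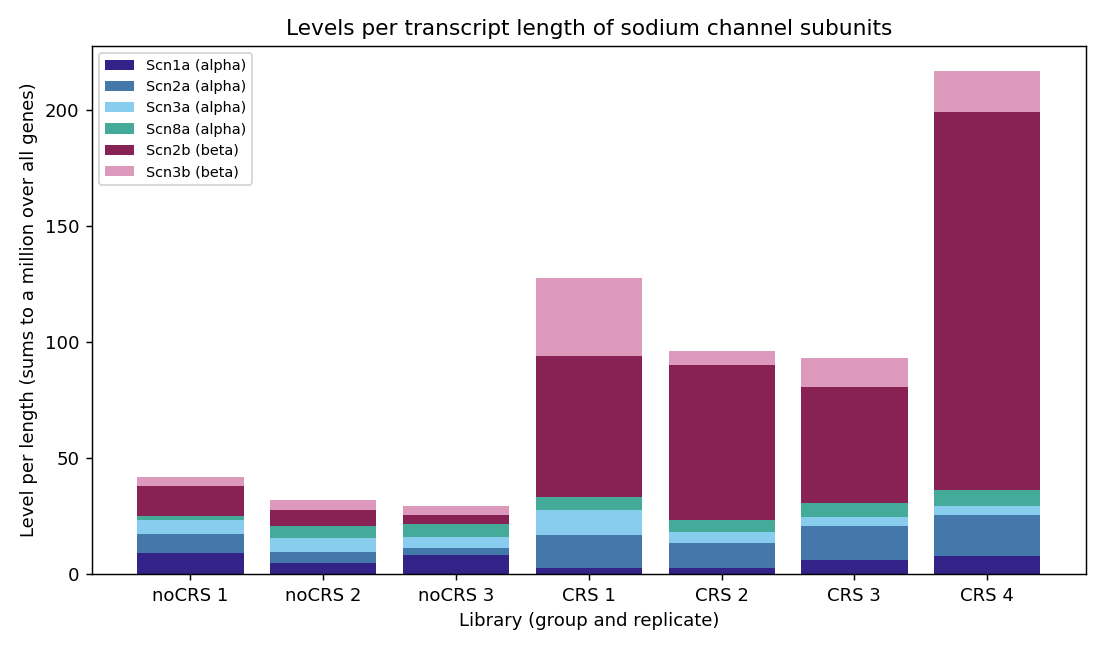
Level per length of each detected member, stacked by library; the 3 bars on the left are noCRS and the 4 on the right CRS, and the axis is linear from 0. The alpha segments sum to 20.6 to 36.5 in all libraries, while the beta segments go from 7.34 to 16.9 in noCRS to 62.6 to 180.4 in CRS.

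Markers of neurons also differed between the groups. Of 12 pan-neuronal markers, 6 rose and 0 fell by edgeR, against 2.07% and 0.23% of all tested genes. The fold change was positive for 11 of the 12 markers, and their median was 3.20 (log2). The highest means in CRS were those of the vesicle fusion protein gene Snap25 (158 ± 57.7 to 2747 ± 611 CPM) and the calcium sensor gene Syt1 (9.0 ± 5.14 to 364 ± 111 CPM). In noCRS the highest was that of the microtubule protein gene Map2, named after its values were seen, at 186 ± 19.0 CPM against 175 ± 53.7 CPM in CRS (edgeR adjusted p = 0.945). Snap25 and Syt1 were not called with the replicate number as a block (edgeR adjusted p = 0.0731 for each). The summed pan-neuronal level per length was 214 to 266 in noCRS and 1486 to 2088 in CRS, a 7.56-fold difference of means. Expressed as a percent of that sum, the alpha subunits measured 10.3%, 9.635% and 8.21% in noCRS and 1.58%, 1.32%, 2.05% and 1.89% in CRS. All CRS values were below all noCRS values, with a ratio of means of 0.182. The beta subunits measured 6.98%, 5.25% and 2.76% in noCRS and 4.52%, 4.10%, 4.21% and 9.335% in CRS, which overlapped, with a ratio of means of 1.11. Between the groups the summed beta level differed 8.68-fold, the neuronal marker sum 7.56-fold and the summed alpha level 1.37-fold. Snap25 held 19.4% to 34.3% of the marker sum in noCRS and 45.2% to 67.0% in CRS. With Snap25 left out of the sum, a choice made after seeing the data, the ratios were 0.302 for alpha (10.7% to 15.7% in noCRS and 2.89% to 4.36% in CRS, no overlap) and 1.84 for beta (3.60% to 10.6% and 8.25% to 21.55%, overlapping).

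**Figure D4:**
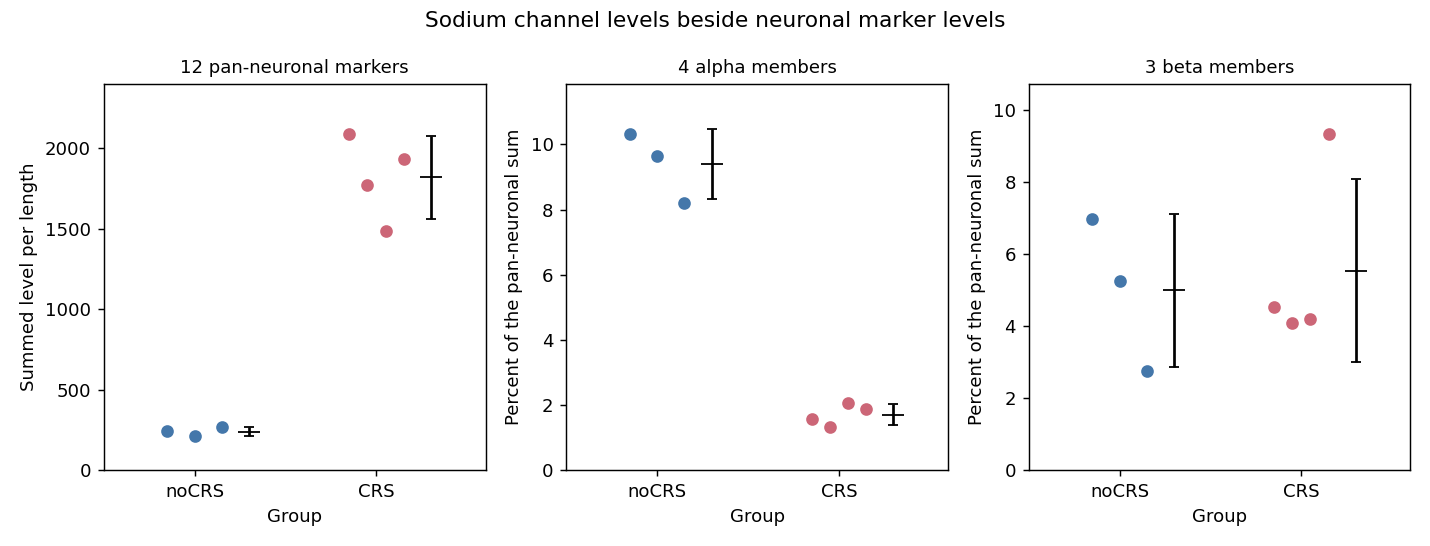
Summed level per length of the 12 pan-neuronal markers (left), and the summed levels of the 4 alpha (middle) and 3 beta members (right) as a percent of it, by library, with mean ± SD in black and linear axes from 0. The alpha percent is 8.21% to 10.3% in noCRS and 1.32% to 2.05% in CRS, while the beta percent overlaps between the groups.

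Marker lists of other cell types are given beside the members because glia and interneurons also carry sodium channel transcripts. Among 8 excitatory markers 3 rose and 0 fell by edgeR, against 2.07% and 0.23% of all tested genes. Of this list, Slc17a7, Neurod2 and Tbr1 had 0 counts in noCRS replicates 2 and 3. The median log2 fold change of the 8, 4.92, rests in part on such counts. The highest means in CRS were those of the calmodulin-binding protein gene Nrgn (13.6 ± 1.36 to 201 ± 38.9 CPM) and the transcription factor gene Neurod6 (1.03 ± 1.53 to 193 ± 51.7 CPM, or from 0.148 CPM with noCRS replicate 2 left out). Leaving out noCRS replicate 1 ended the Neurod6 call (edgeR adjusted p = 0.0626). The kinase gene Camk2a, second to Nrgn in noCRS and named after its values were seen, measured 7.20 ± 5.62 and 15.5 ± 6.86 CPM (edgeR adjusted p = 0.589). Of 6 tested inhibitory markers 2 rose, the peptide gene Sst (2.54 ± 0.29 to 168 ± 156 CPM, or 91.4 CPM in CRS with replicate 2 left out) and the GABA-synthesising enzyme gene Gad1 (25.7 ± 4.08 to 97.4 ± 43.1 CPM). The Sst call did not hold with noCRS replicate 1 or 2 left out (reaching an edgeR adjusted p of 0.0552), nor that of Gad1 with any library but CRS replicate 2 left out (reaching 0.136). Slc32a1, the vesicular GABA transporter gene, and Lhx6, a transcription factor gene of interneurons, had 0 counts in every noCRS library. In CRS, Slc32a1 had 0, 0, 4 and 4 counts, and Lhx6 had 462 counts in replicate 2 and 0 in the others. The list summed to 62.9 to 65.6 CPM in noCRS and 208 to 893 CPM in CRS.

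Oligodendrocyte precursor markers went the other way, with 4 of 8 lower and 0 higher by edgeR, against 0.23% and 2.07% of all tested genes. These markers had a median log2 fold change of -1.22, and sums of 2014 to 2355 CPM in noCRS and 1107 to 1547 CPM in CRS. Their 2 most abundant members, the growth factor receptor gene Pdgfra (911 ± 236 and 764 ± 219 CPM) and the transcription factor gene Olig1 (493 ± 108 and 208 ± 71.8 CPM), did not pass. No marker of oligodendrocytes, astrocytes, microglia or vessels was called by edgeR, which called 2.3% of all tested genes. DESeq2 called 0, 2, 1 and 1 genes of these lists in that order, and 9.14% of all genes with an adjusted p. By limma-voom 0 were called in each list, and 3.58% of all tested genes. The microglial gene that DESeq2 called was Tmem119 (DESeq2 adjusted p = 0.00661), which was not among the genes tested by edgeR. The myelin gene Cnp measured 2456 ± 303 and 2110 ± 854 CPM. Of the astrocyte genes, Apoe measured 5099 ± 154 and 3529.5 ± 814 CPM and Slc1a3 2045 ± 460.2 and 1348.5 ± 769 CPM, and the list summed to 8419 to 9596 CPM in noCRS and 4670 to 9808 CPM in CRS. Microglial markers summed to 89.4 to 132.9 CPM and 84.4 to 124 CPM in noCRS and CRS, with P2ry12 at 6.52 ± 6.83 and 3.52 ± 6.59 CPM. Tmem119 had 0 counts in every noCRS library and 163, 1, 64 and 11 counts in CRS replicates 1 to 4. For P2ry12 the means were 2.97 CPM without noCRS replicate 3 and 0.222 CPM without CRS replicate 4. Vessel markers summed to 62.45 to 217 CPM and 139 to 627 CPM, led by the mural genes Rgs5 (39.9 ± 30.0 and 256 ± 126 CPM) and Vtn (28.7 ± 14.98 and 67.9 ± 53.2 CPM). What part these cell types have in the levels of the sodium channel genes was not tested.

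Among sodium channel genes outside the 7 members, Nalcn, which encodes the sodium leak channel, measured 28.1 ± 6.79 and 25.3 ± 10.2 CPM (edgeR adjusted p = 0.932). Scn10a and Scn11a, known from sensory neurons, had 0 counts in every library. Scn4a, of skeletal muscle, had 1 count in all, in CRS replicate 4. Scn7a and Scn9a reached at most 93 and 130 counts, in both cases in CRS replicate 4.

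Genes for channel partners and proteins of the axon initial segment had a median log2 fold change of 0.16. Of the 16 tested, 1 rose and 0 fell, and the fold change was positive for 9. Of all tested genes, 2.07% rose, 0.23% fell and 49.2% had a positive fold change. The 1 gene of the list that rose was Fgf12. Its product is a fibroblast growth factor homologous factor that binds the intracellular tail of alpha subunits and alters their inactivation. Fgf12 measured 38.3, 42.7 and 37.6 CPM in noCRS and 133, 159, 117 and 120.0 CPM in CRS. The libraries of each group were close together and far from those of the other group. Its log2 fold change was 1.74 ± 0.19 (SE), with an edgeR adjusted p of 0.00476. The call held without any single library, but not with the replicate number as a block (edgeR adjusted p = 0.0852). Cntn1, an adhesion protein gene, measured 557 ± 58.4 and 527 ± 40 CPM (edgeR adjusted p = 0.908), and the adhesion protein gene Nrcam 189 ± 30.5 and 184.5 ± 70.1 CPM (0.985). Ank3, which encodes the ankyrin that anchors sodium channels at the initial segment and was named after its values were seen, measured 78.1 ± 8.69 and 75.7 ± 21.1 CPM (0.973).

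For each tested member the genes with the most similar profile were sought among 10817 others with a mean of at least 5 CPM. Likeness was the root mean square distance over the 7 libraries between log2 CPM profiles, each centred on its mean. Nearest to Scn2b were Vsnl1, a neuronal calcium sensor gene (distance 0.471), the NMDA receptor subunit gene Grin2b (0.521) and Lzts1 (0.535). Vsnl1 measured 4.196 ± 2.06 and 37.5 ± 8.37 CPM and Grin2b 2.01 ± 0.68 and 36.2 ± 8.99 CPM, both past the edgeR threshold (adjusted p = 0.0161 and 0.00492), the Vsnl1 call being lost without noCRS replicate 2 or CRS replicate 4 (up to 0.0774). Lzts1 measured 16.4 ± 10.03 and 88.2 ± 44.99 CPM (0.0758).

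Nearest to Scn3b were Ndrg4 (0.312), the syntaxin gene Stx1a (0.312) and Mre11a (0.362), and nearest to Scn2a were Slf1 (0.168), Lancl2 (0.183) and the neuronal glucose transporter gene Slc2a3 (0.2435). Of these 6, edgeR called Ndrg4 (93.1 ± 3.30 to 367 ± 181.5 CPM) and Slc2a3 (42.2 ± 14.3 to 116 ± 14.6 CPM). Leaving out any 1 library ended the Slc2a3 call (edgeR adjusted p reaching 0.128), and leaving out any but CRS replicates 1 and 2 ended that of Ndrg4 (reaching 0.132). For Scn8a the nearest were Cetn2 (0.142), Inafm2 (0.175) and Zfp575 (0.1845), for Scn3a Clstn3 (0.131), Clstn1 (0.142) and Spats1 (0.158), and for Scn1a Ephx1 (0.219), Mccc2 (0.235) and Ano6 (0.243), of which edgeR called none. No member was among the 3 nearest genes of another. The closest pair of members was Scn2a and Scn3b at 0.725, and the farthest Scn1a and Scn2b at 2.18. These distances describe 7 libraries that share their group differences, so genes with like group differences lie near each other by construction.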

How the data were processed

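Per the labels' protocols, a micro-scale RNA kit was followed by library making with a transposase kit. The authors deposited raw counts per gene for 55367 genes with exon lengths in bases. HISAT, HISAT2, FastQC, DESeq2 and featureCounts are listed, without versions, in the submitters' processing notes, with GRCm38 as the build. Column names follow the pattern of STAR output, and the aligner was not settled.

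All 7 libraries entered edgeR 4.0.16 in R 4.3.3 (TMM factors, default expression filter, quasi-likelihood test, no covariate), with Benjamini-Hochberg adjustment over 17833 genes and a threshold of 0.05. Log2 CPM used a prior count of 2. The scripts were tested on simulated data. Alternatives were DESeq2 1.42.0, limma-voom (limma 3.58.1) with quality weights, 3 other scalings, 2 other filters, each library left out in turn and the replicate number as a block. Floors of 3 counts hold for counting error alone: PCR copies cannot be told from separate molecules here. No libraries were duplicates (chi-square per gene of at least 80.2).

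The members, lists and rules were chosen with earlier results of these data known. Named genes were the 7 members; in the lists of other sodium channel genes and of partners, each called gene with the 2 of smallest p and the 2 of highest CPM; the 2 of highest CPM in each marker list; and the 3 most similar genes of each tested member, leaving out predicted models and pseudogenes. A few genes that this rule names are not reported here. The list genes at 0 or near it, Snap25 alone as a share, and Ank3, Map2 and Camk2a, were chosen after values were seen. Protein sequences were not used here.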

Additional observations from a re-analysis of the deposited data

Results flagged for a closer look

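In 15 sets of CRS values (the members' CPM and levels per length, the alpha and beta sums, and the beta share), a library was looked for whose gap to the next one exceeded the 95% critical share of the group's range (Dixon's limit for 4 values). Chance gives about 1 in 20 such sets, though these sets share libraries and counts and are not independent of each other. The Scn2b level per length was 162.7 in CRS replicate 4, against 50.3 to 66.9 in the other CRS libraries, and without that library the log2 fold change of Scn2b was 2.99 (edgeR adjusted p = 0.0413). The Scn3a level per length was 10.7 in CRS replicate 1, against 3.68 to 4.60 in the others. On the CPM scale the same libraries were farthest from the rest, with gaps of 0.802 and 0.806 of the range, below the limit.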

How the results depend on the processing

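The alpha median, the beta median and the beta share of the summed level moved by less than the spread between libraries under each alternative run; the difference in beta share was 41.4 percentage points, 36.4 with counts not divided by length and 37.2 to 44.8 with 1 library left out. The number of members called was 1, and it was 3 by DESeq2 (Scn2a, Scn2b and Scn3b), 0 with the replicate number as a block and 0 to 2 with 1 library left out. Of all genes, 410 were called, against 1631 by DESeq2, 639 by limma-voom, 12 with the replicate block and 142 to 352 with 1 library left out. Of the calls, 90% were higher in CRS with TMM factors and 79.5% with total counts alone, where the median over all genes was -0.17 (log2) in place of -0.02. The labels do not say whether the replicate numbers pair the libraries. Deviations of same-numbered libraries correlated at 0.015, -0.003 and 0.023, and those of differently numbered ones at -0.065 to 0.05. These correlations over all genes cannot settle whether same-numbered libraries share an animal or a day. Under the block the log2 fold change of Scn2b was 3.195 (edgeR adjusted p = 0.102). Signs turned for genes that were not called: Scn3a (-0.14 by limma-voom, -0.016 with total counts alone, -0.31 to 0.27 with 1 library left out), Cntn1 (0.0066 by limma-voom, -0.15 to 0.012 left out), Nrcam (0.19, -0.33 to 0.12), Clstn3 (-0.070, -0.23 to 0.37), Clstn1 (-0.081 to 0.35 left out), Nalcn (-0.46 to 0.045) and P2ry12 (-4.87 to 0.25). The ratio to the pan-neuronal sum, 0.182 for alpha and 1.11 for beta, was 0.302 and 1.84 without Snap25 in the sum, and 0.170 to 0.196 and 0.856 to 1.38 with 1 library left out. The cause of these shifts was not tested. With 3 against 4 libraries and a coefficient of variation of 0.919, a missed threshold does not show that a member did not differ.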
